A study of Mus musculus with 24 samples.

Results

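The deepest sites of an m6A pull-down in abundant mouse liver transcripts were described here, in livers with and without the apolipoprotein gene Apof. The authors' site tables give, for each site, immunoprecipitated (IP) and input reads summed over the libraries of both groups compared, hence 4 sums a site. Members were chosen by these sums: a site was taken if the smallest of these sums was at least 5000 reads and if its ratio of IP to input reads in the reference group of the table lay above 0.7 and below 2. This left 1183 of 52025 sites in the comparison of genotypes at 8 weeks, 1284 of 52315 at 28 weeks and 1147 of 51883 in the comparison of ages in wild type, which is 3614 of 156223 sites in all. The series compared livers of C57BL/6 mice with an ApoF gene knockout and of wild-type mice of the same strain, at ages of 8 and 28 weeks, with 3 animals in each of the 4 groups and an IP and an input library from each animal (24 libraries of 12 mice). Its stated aim was to follow the m6A methylome in the disordered lipid metabolism of the knockout. The sources used here do not state how Apof was targeted, which part of it was deleted, or the sex and diet of the mice. The depth and the reference ratio that chose the members come from the same tables as the differences, so counts of differing members are a description with no test of their own. The rule also left out strongly enriched sites. In wild type at 8 weeks the median member ratio was 1.09, against 0.985 for the reads of all sites together. The rule itself held the member ratios between 0.7 and 2, so these values give no measure of enrichment by the pull-down. Whether single members carry m6A was not tested.

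N6-methyladenosine (m6A) is a methyl mark that the Mettl3 and Mettl14 methyltransferase complex places on adenosines of RNA, often near stop codons and in long exons, and that Fto and Alkbh5 can remove. Reader proteins bind the mark and can change how an mRNA is spliced, translated or degraded. In this assay, an antibody against m6A pulls RNA fragments out of the pool, and the ratio of IP to input reads at a site rises with the share of fragments that carry the mark. The transcripts with the most reads in liver encode plasma proteins, apolipoproteins, protease inhibitors, major urinary proteins and metabolic enzymes.

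The Serpina1 and major urinary protein (Mup) genes carry several of the deepest sites and are families of close copies, so their reads can be shared between members of a family. The windows below show promoter stretches of such copies, each set around a motif shared by the genes shown. How alike whole promoters are was not measured, and the transcripts were not compared. They come from the RefSeq promoter table of build GRCm38.p6, are written 5′ to 3′ on the strand of the gene, and 999 of the 1315 symbols in member sites had an entry in that table. In the Serpina1 windows, the capitals mark GTTAATATT, letters that resemble part of the recognition sequence of the liver transcription factor HNF1. These genes encode alpha-1-antitrypsins, secreted inhibitors of proteases, and the windows lie at chr12:103863603-103863680 (Serpina1a), chr12:103738178-103738255 (Serpina1b), chr12:103904940-103905017 (Serpina1c), chr12:103773612-103773689 (Serpina1d) and chr12:103956938-103957015 (Serpina1e), all on the minus strand.
Serpina1a: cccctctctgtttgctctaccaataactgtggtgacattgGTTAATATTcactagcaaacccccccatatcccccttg
Serpina1b: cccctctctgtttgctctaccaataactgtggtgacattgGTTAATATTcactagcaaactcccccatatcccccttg
Serpina1c: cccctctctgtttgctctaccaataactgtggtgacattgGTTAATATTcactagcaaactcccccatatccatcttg
Serpina1d: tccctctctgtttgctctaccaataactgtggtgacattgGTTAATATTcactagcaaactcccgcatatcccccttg
Serpina1e: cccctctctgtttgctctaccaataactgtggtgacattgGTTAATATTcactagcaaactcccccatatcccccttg
Over these 78 bases, Serpina1b and Serpina1e differed from Serpina1a at 1 base each, and Serpina1c and Serpina1d at 3 each.

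The Mup genes encode small carrier proteins that are secreted by the liver and excreted in urine, where they bind pheromones. In their windows the capitals mark TATATAAGG, a TATA-box-like stretch on which the windows were placed. It starts at -27, -2, 12, -25 and -25 bases from the annotated gene start in Mup2, Mup11, Mup14, Mup15 and Mup17. Its place relative to the start thus varies, and in Mup14 it lies after it. The windows lie on the minus strand at chr4:60139846-60139923 (Mup2), chr4:60662360-60662437 (Mup11), chr4:61303949-61304026 (Mup14), chr4:61439692-61439769 (Mup15) and chr4:61595820-61595897 (Mup17).
Mup2: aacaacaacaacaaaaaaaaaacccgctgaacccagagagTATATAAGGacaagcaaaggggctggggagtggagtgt
Mup11: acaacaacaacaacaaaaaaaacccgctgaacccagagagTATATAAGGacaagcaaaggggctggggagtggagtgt
Mup14: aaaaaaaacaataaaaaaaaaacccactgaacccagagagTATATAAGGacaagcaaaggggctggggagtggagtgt
Mup15: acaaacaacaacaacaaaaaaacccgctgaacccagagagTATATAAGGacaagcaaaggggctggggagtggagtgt
Mup17: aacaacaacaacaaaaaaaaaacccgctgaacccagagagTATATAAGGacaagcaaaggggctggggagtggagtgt
Mup17 had the same letters as Mup2 over these 78 bases, Mup15 differed at 3, Mup14 at 4 and Mup11 at 9.

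Promoter letters of all genes with a member site were counted in the windows from 250 bases before to 50 after the gene start, on both strands, and a window counted once however many matches it held (matches of different motifs may overlap). GTTAATNAT, a stretch of the HNF1 motif that the Serpina1 capitals do not match, was in 2.50% of the 999 member promoters, against 0.528% of the 10035 promoters of other genes with a site and 0.836% of all 27025 promoters. CAAAGTCCA, an HNF4-like stretch, was in 1.70%, 0.389% and 0.477% of the same promoter groups. TTGCNNAA, a C/EBP-like stretch, was in 13.2%, 8.36% and 10.8%. TATAAA was in 11.1%, 7.92% and 14.2%, CCAAT in 42.8%, 38.8% and 37.9%, and GGGCGG in 53.0%, 60.7% and 35.9%. These shares describe letters only. Site sequences are not shown, since the sources used here give no site coordinates.

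Member sites were few but took most of the IP reads. At 8 weeks they were 2.27% of the listed sites and held 55.7% of the IP and 49.96% of the input reads in wild type, and 56.4% and 51.1% in the knockout. The median of their smallest sum was 9194 reads, against 130 over all sites, and the deepest, at Apoe, reached 1886070. The sums of all sites were 72868528 IP and 74003375 input reads in wild type and 84151218 and 77744176 in the knockout at 8 weeks, and 90090292, 77187809, 90420947 and 80819641 in the same order at 28 weeks. Member names held 1315 gene symbols. Of these, 1309 were matched to RefSeq, which lists 1226 as protein coding, 26 as transcribed pseudogenes, 24 as small nucleolar RNAs, 18 as long noncoding RNAs and 14 as miRNAs. A site can carry more than 1 name where genes overlap or are copies (57 of the 1183 sites at 8 weeks), and such a site cannot be assigned to 1 gene.

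The wild-type group at 8 weeks stood apart in sex-linked RNA, which touches every comparison that uses it. Its implied mean normalised RNA level was 0.178 for the Y-linked Ddx3y, against 2338 in the knockout at 8 weeks, and 0.178 against 935 for Kdm5d. Xist, transcribed from the inactive X chromosome, was at 21017 there and at 10192 in the knockout at 8 weeks. The 3 other groups held both Y-linked RNA and Xist. Hepatocyte markers dominated in every group, with 12 of 12 found and summed levels of 4593993 to 6894096. In the knockout at 8 weeks, summed levels of stellate and fibroblast markers (8 of 8 found) were 24394 against 11810 in wild type, those of erythroid markers (5 of 5) were 12795 against 3548, and those of exocrine pancreas, muscle and adipose markers (9 listed, 3 at 0) were 7513 against 130. Of the first 2 sets 3 of 7 and 2 of 5 tested markers were called higher and 0 lower. Of the last only 3 were tested, and 0 were called. Lymphocyte and plasma cell markers (7 of 8 found) were lower there, at 916 against 1577, with 2 of 7 tested called lower and 0 higher. Sinusoidal endothelial markers (9 of 9) were at 11632 in the knockout and 15717 in wild type at 28 weeks, and stellate and fibroblast markers went from 23299 to 8095 with age in the knockout, where 5 of 7 tested were called lower. Fewer cells of a type and less RNA per cell cannot be told apart in such bulk samples. The part of these differences in the site results was not tested, and sex-linked RNA and genotype cannot be told apart at 8 weeks, nor sex-linked RNA and age in wild type.

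Levels across the 4 groups could be read at 418 sites (398 genes) that were members in every table and carried the same wild-type sums where tables shared a group. The rule thus held their wild-type ratios between 0.7 and 2 at both ages, with no such limit in the knockout. In the comparison of ages, 102 members at 2 or more and 2 at 0.7 or less in wild type at 28 weeks were therefore not among them. Their median ratio of IP to input reads was 1.02 in wild type and 1.19 in the knockout at 8 weeks, and 1.29 in wild type and 1.22 in the knockout at 28 weeks. Wild type at 8 weeks was the lowest group at 394 of the 418 sites and wild type at 28 weeks the highest at 347. The ratios of the column totals over all sites moved in the same order, at 0.985, 1.08, 1.17 and 1.12. With each ratio divided by that of its totals, the medians were 1.03, 1.1, 1.1 and 1.09, and wild type at 8 weeks was lowest at 262 sites and wild type at 28 weeks highest at 157.

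**Figure D1:**
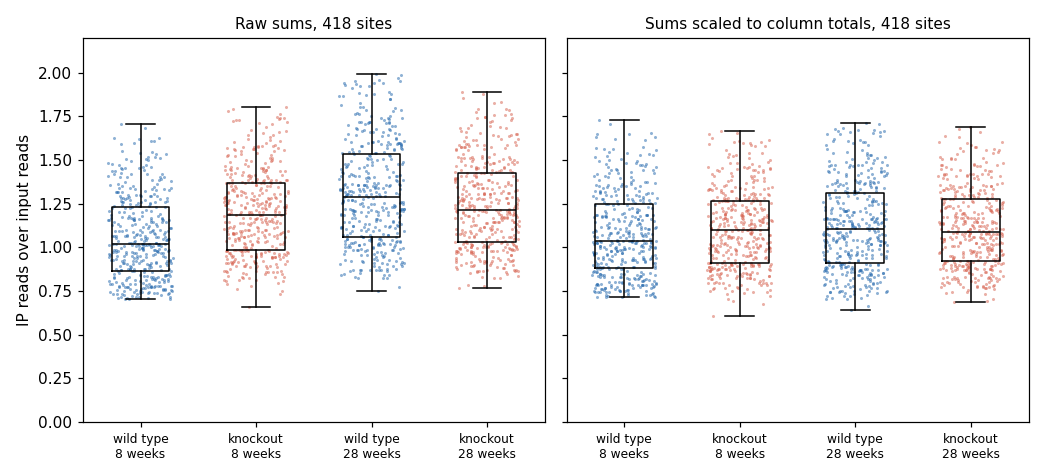
Ratio of IP to input reads at the 418 sites that were members in every table, as raw sums (left) and scaled to the column totals over all sites (right), by group. Each point is a site, boxes give the quartiles and the median, and whiskers the lowest and highest site. Raw medians ran from 1.02 to 1.29 and scaled medians from 1.03 to 1.1.

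Within these limits, which left out sites that moved past them in wild type, most of the 418 sites kept close to the same scaled ratio in all 4 groups. The median range over the groups was 0.12 on the log2 scale after scaling (0.32 before), and 396 of the 418 sites had a scaled range under 0.25. The site of Eif4g2, a translation initiation factor, had raw ratios of 1.28, 1.42, 1.52 and 1.46 and scaled ratios of 1.3, 1.31, 1.3 and 1.31 in wild type and knockout at 8 weeks and wild type and knockout at 28 weeks. Ces1d, a carboxylesterase that hydrolyses triglycerides, was among the sites with a wide range, with raw ratios of 0.756, 0.731, 0.848 and 1.14 in the same order, high in the knockout at 28 weeks alone. Its paralog Ces1f had 0.771, 1.08, 0.987 and 1.15, with the knockout above wild type at both ages.

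The differences given next are the authors' log2 difference of IP over input between groups, which adds an offset to the raw ratio. The offset matters for direction. The median member difference at 8 weeks was 0.19 from raw sums, 0.05 after scaling to column totals and 0.01 in the authors' deposited table. At 28 weeks these medians were -0.07, -0.01 and -0.02, and in wild type with age 0.31, 0.05 and 0.05, with the last of each 3 taken from the authors' deposited table. A site was called where the adjusted p in the authors' deposited table was under 0.05. The standard error that these p-values imply equalled the counting error of the 4 sums to within 1% at 1141 of 1141, 1230 of 1230 and 1100 of 1100 member sites with a usable p. They therefore hold no spread between the 3 animals of a group, and errors printed with site differences are counting errors only.

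At 8 weeks, sites in transcripts of amino acid breakdown, cytochrome P450 enzymes and mitochondrial proteins were mostly higher in the knockout. Serpina1 and most Mup sites were lower. Called sites of conjugation and redox genes were mostly higher too (19 higher, 7 lower). A smaller share of their tested sites was called, at 55.3% against 75.6%, 80% and 72.7% in the first 3 lists. Of 1180 member sites tested, 602 were called, 322 higher and 280 lower, against 10.9% called among all sites tested (5.52% higher and 5.43% lower) and 51.7% at the same depth with any ratio. Nothing is read from that contrast, since the rule used the same sums. For the same 602 sites, directions from sums scaled to column totals gave 340 higher and 262 lower, and those from raw sums 515 and 87. A Wald test on the scaled sums, which changes the test as well, called 439 higher and 155 lower. Most differences were small. A difference of at least 1.2-fold was called at 39 sites (9 higher, 30 lower), which is 3.31% of tested members against 5.28% of all tested sites, and one of at least 1.5-fold at 3.

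Amino acid catabolism and urea cycle genes had 29 of 45 tested member sites higher and 5 lower at 8 weeks, and by raw sums 33 of these 34 called sites were higher. Arg1, the arginase of the urea cycle, went from a ratio of 0.780 to 0.922 (0.10 in the authors' deposited table), and Tat, which starts tyrosine breakdown, from 0.832 to 0.984 (0.05 in the authors' deposited table). Amdhd1, an enzyme of histidine breakdown, differed from these, with ratios of 1.47 and 1.26 and -0.41 in the authors' deposited table. Over the list, the median difference was 0.09, against 0.01 over all member sites, in the authors' deposited table.

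Cytochrome P450 genes, whose enzymes oxidise drugs and steroids, had 18 of 30 tested sites higher and 6 lower. Cyp2e1, which oxidises ethanol, had ratios of 0.804 in wild type and 0.965 in the knockout. Cyp2c67 was the exception in size, at 0.897 and 0.682, or -0.48 ± 0.02 in the authors' deposited table. Among genes of mitochondria and oxidative phosphorylation 14 of 22 sites were higher and 2 lower. Atp5pb, a subunit of ATP synthase, had ratios of 1.33 and 1.61, and Uqcrh, a subunit of complex III, 1.26 and 1.5. Further sites with a large rise were Srp54b,Srp54c, named for genes of the signal recognition particle (1.1 and 1.58), Fmo5, a flavin monooxygenase (0.868 and 1.21), and Upp2, a uridine phosphorylase (0.966 and 1.28), at 0.41, 0.33 and 0.29 in the authors' deposited table.

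The lists named next had calls in both directions at 8 weeks by the authors' values, and mostly higher ones by raw sums. Plasma carrier genes had 15 of 31 sites higher and 10 lower, or 22 and 3 by raw sums. Trf, the iron carrier transferrin, had ratios of 1.13 in wild type and 1.06 in the knockout (-0.26 in the authors' deposited table). Complement and coagulation genes had 15 of 47 higher and 9 lower (22 and 2 by raw sums), and conjugation and redox genes 19 of 47 and 7 (24 and 2). Genes of translation, chaperones and secretion had 14 of 44 higher and 13 lower, and by raw sums 23 of those 27 were higher. Calr, the calcium-binding chaperone calreticulin of the endoplasmic reticulum, went from 1.62 to 1.38 (-0.45 in the authors' deposited table), and Hsp90b1, its neighbour in the same compartment, from 1.46 to 1.41 (-0.20 in the authors' deposited table). Fatty acid genes had 8 of 37 higher and 8 lower, or 14 and 2 by raw sums, and among them the lipogenic desaturase gene Scd1 had ratios of 1.36 and 1.35. Anp32b, which encodes an acidic nuclear phosphoprotein, had ratios of 1.64 and 1.34 and -0.49 ± 0.02 in the authors' deposited table.

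**Figure D2:**
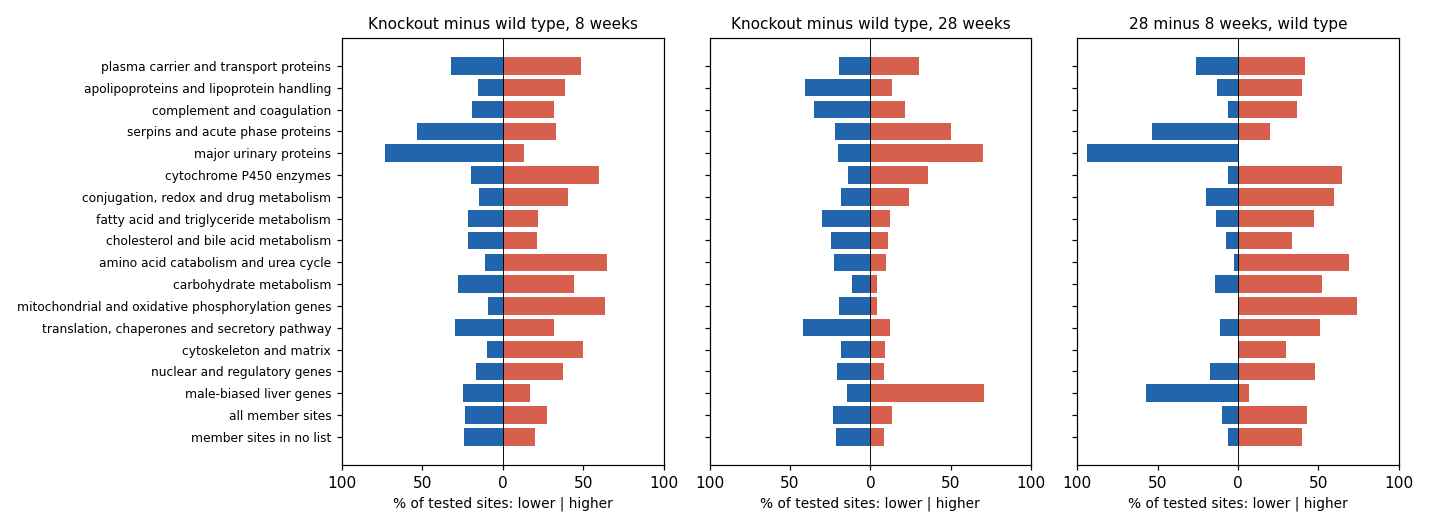
Share of tested member sites called higher (red, right) or lower (blue, left) in each gene list with at least 10 tested sites in every comparison, by the direction in the authors' deposited table. Of Mup sites 11 of 15 were lower at 8 weeks, 21 of 30 higher at 28 weeks and 16 of 17 lower with age in wild type.

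At 28 weeks the knockout and wild type differed at fewer deep sites, and more often towards lower values in the knockout. Of 1274 sites tested, 466 were called, 173 higher and 293 lower, against 9.18% of all sites tested (2.57% higher, 6.62% lower) and 42.4% at the same depth with any ratio. At least 1.2-fold was called at 17 sites (10 higher, 7 lower), which is 1.33% of tested members against 3.02% of all tested sites. Genes of translation, chaperones and secretion had 6 of 50 higher and 21 lower, amino acid genes 7 of 71 and 16, fatty acid genes 6 of 50 and 15, and mitochondrial genes 1 of 26 and 5. Calr had ratios of 1.80 and 1.57 and Hsp90b1 1.76 and 1.57, or -0.15 and -0.10 in the authors' deposited table. Scd1 had ratios of 1.90 in wild type and 1.5 in the knockout and -0.27 in the authors' deposited table.

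The largest single-gene fall at 28 weeks was at Hamp2, a paralog of the gene for hepcidin, the hormone that limits iron uptake. Its sums were 40287 IP and 24501 input reads in wild type and 59792 and 56586 in the knockout, ratios of 1.64 and 1.06, with -0.59 ± 0.01 in the authors' deposited table. Fabp5, a fatty acid binding protein, had ratios of 1.77 and 1.37. D5Ertd579e had -0.30 in the authors' deposited table but -0.07 from scaled sums, so most of that difference was the offset. Ces1d rose from 0.848 to 1.14, or 0.49 ± 0.03 in the authors' deposited table. Cytochrome P450 genes had 13 of 36 tested sites higher and 5 lower. Of the 11 sites of female-biased genes only 2 had an adjusted p, and 3 of those without, Cyp3a41a, Cyp2c69 and Cyp2c40, had ratios of 1.26, 1.36 and 1.35 in wild type and 0.985, 1.04 and 1.07 in the knockout.

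With age in wild type, deep sites were called higher at 28 weeks far more often than lower, apart from Mup and Serpina1 sites. Of 1144 sites tested, 604 were called, 491 higher and 113 lower, against 11.3% of all sites tested (9.06% higher, 2.2% lower) and 52.2% at the same depth with any ratio. By raw sums 586 of the 604 were higher and 18 lower. At least 1.2-fold was called at 29 sites (14 higher, 15 lower), which is 2.53% of tested members against 4.14% of all tested sites. Amino acid genes had 31 of 45 higher and 1 lower, cytochrome P450 genes 20 of 31 and 2, mitochondrial genes 14 of 19 and 0, conjugation and redox genes 30 of 50 and 10, and genes of translation and secretion 23 of 45 and 5. This comparison shares its wild-type libraries with both genotype comparisons, so like directions among them are not separate observations.

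Tdo2, which starts tryptophan breakdown, went from 30233 IP and 25662 input reads at 8 weeks to 57514 and 33927 at 28 weeks, ratios of 1.18 and 1.70, with 0.32 ± 0.02 in the authors' deposited table. Hamp, the hepcidin gene, went from 0.824 to 1.3 (0.35 in the authors' deposited table). Sult3a1, a sulfotransferase, went from 1.28 to 1.93 and the steroid hydroxylase gene Cyp2a4 from 1.45 to 2.32, both at 0.43 in the authors' deposited table. Both are known as female-biased liver genes, and that list had 7 of 8 tested sites higher and 0 lower. Male-biased genes had 1 of 14 higher and 8 lower, or 5 and 4 by raw sums. Beside these counts stand the absence of Y-linked RNA and the higher Xist of wild type at 8 weeks.

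Mup sites held the largest differences of all, and their direction changed between comparisons. At 8 weeks 2 of 15 sites were higher in the knockout and 11 lower, or 6 and 7 by raw sums. At 28 weeks 21 of 30 were higher and 6 lower, and with age in wild type 0 of 17 were higher and 16 lower (by raw sums 3 of those 16 were higher). Input reads at these sites, as a share of all input reads, were 0.453 to 12.6 times the wild-type value in the knockout at 8 weeks, 0.247 to 1.55 times at 28 weeks, and 2.55 to 70.0 times with age in wild type, where all 17 rose. The 70.0 times was at Mup20, whose raw ratio rose with age from 1.01 to 1.24, and Mup15,Mup2 went from 0.784 to 0.865.

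The Mup13,Mup17 site had 16439 IP and 11344 input reads in wild type at 8 weeks, 11121 and 12686 in the knockout at 8 weeks, and 59701 and 99619 in wild type at 28 weeks. Its ratios were 1.45, 0.877 and 0.599, and the authors' deposited table gave -0.85 at 8 weeks and -1.49 with age. Mup14,Mup15,Mup2 had ratios of 1.67 and 0.988 at 8 weeks (-0.84 in the authors' deposited table). At 28 weeks a Mup8 site had 25041 IP and 29827 input reads in wild type and 16073 and 7701 in the knockout, ratios of 0.840 and 2.09, with 1.38 ± 0.02 in the authors' deposited table. A second Mup8 site, at 1.19 and 1.13, and the third, at 1.61 and 1.59, were not called, so sites with 1 name did not move together. Mup15,Mup7 likewise had a site at 0.934 and 0.560 and another at 0.781 and 0.777. The pooled site of Mup11, Mup12, Mup13, Mup14, Mup15, Mup2 and Mup22 had ratios of 0.861 and 0.985, a scaled difference of 0.25 and 0.04 in the authors' deposited table. Mup20, which encodes the male pheromone darcin, was higher in the knockout at both ages, at ratios of 1.01 and 1.3 at 8 weeks and 1.24 and 1.36 at 28 weeks. Reads from such copies may be placed on any of them, so values of single Mup sites are uncertain.

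**Figure D3:**
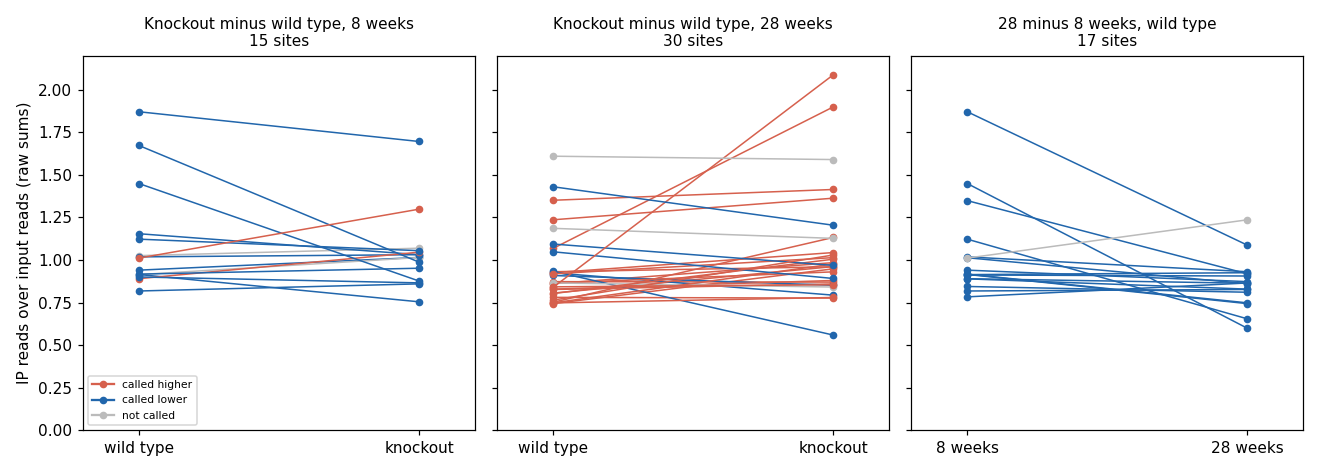
Ratio of IP to input reads (raw sums) at each member site named for Mup genes in the groups of the 3 comparisons, with lines joining a site. Colours give the call and direction in the authors' deposited table. The Mup8 site at 28 weeks went from 0.840 to 2.09, while the other Mup8 sites went from 1.19 to 1.13 and from 1.61 to 1.59.

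All 5 Serpina1 genes had a member site in every table. At 8 weeks the ratios of Serpina1a to Serpina1e were 1.24, 1.21, 1.06, 1.17 and 1.44 in wild type and 1.2, 1.11, 0.993, 1.09 and 1.27 in the knockout. All 5 were lower, by raw sums too, and the authors' deposited table gave -0.25, -0.33, -0.31, -0.31 and -0.39, each with an adjusted p listed as 0. At 28 weeks the differences were between -0.04 and 0.05 in the authors' deposited table. With age in wild type they were between -0.28 and -0.14 in the authors' deposited table, although the raw ratios rose at all 5 sites, for Serpina1a from 1.24 to 1.36. Input reads at these sites, as a share of all input reads, were 1.27 to 1.70 times the wild-type value in the knockout at 8 weeks, 0.808 to 0.897 times at 28 weeks, and 1.38 to 1.84 times with age. Reads may be shared between these gene copies, so the 5 sites cannot be taken as separate observations. The sequences of their transcripts were not compared.

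Depth set how small a difference could be called. In the knockout comparison at 8 weeks, 39.9% of tested members were called at a smallest sum of 5000 up to 10000 reads, 62.1% from there up to 100000 and 89.7% at 100000 or more. The shares were 23.6%, 48.5% and 84.8% at 28 weeks and 41.0%, 65.4% and 86.5% with age. The median size of the difference in the same classes was 0.07, 0.07 and 0.10 at 8 weeks, 0.05 in each class at 28 weeks, and 0.07, 0.08 and 0.05 with age, in the authors' deposited table. The median counting error meanwhile fell from 0.0316 to 0.0195 and 0.00539 at 8 weeks. At Apoe, the deepest site, ratios of 0.803 and 0.921 at 8 weeks gave only 0.02 ± 0.002 in the authors' deposited table, with an adjusted p of 9.4e-13.

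**Figure D4:**
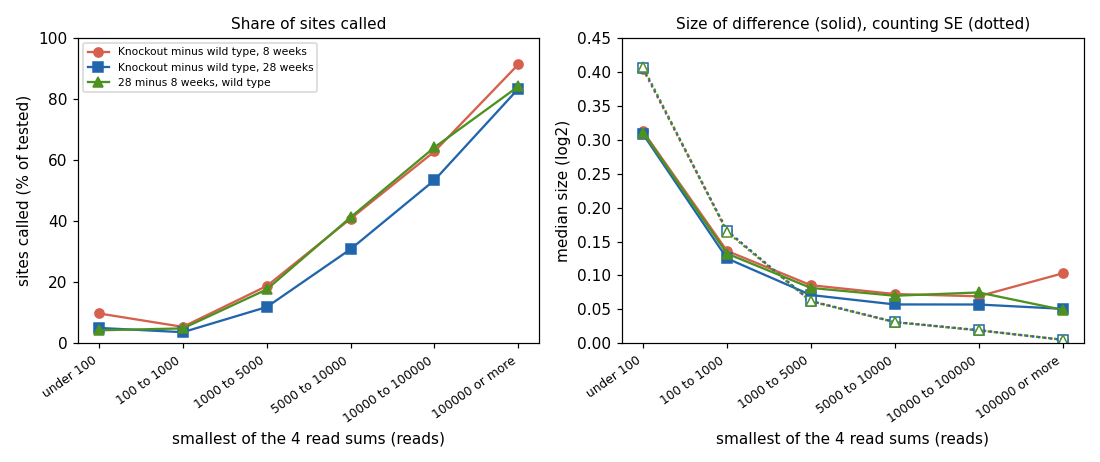
Share of sites called (left) and median size of the log2 difference (solid) with its median counting standard error (dotted, right) by class of the smallest of the 4 sums, over all sites at any ratio. From 100 reads upward the share called rose with depth in all 3 comparisons, while the median size stayed near 0.05 to 0.10 above 5000 reads.

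**Figure D5:**
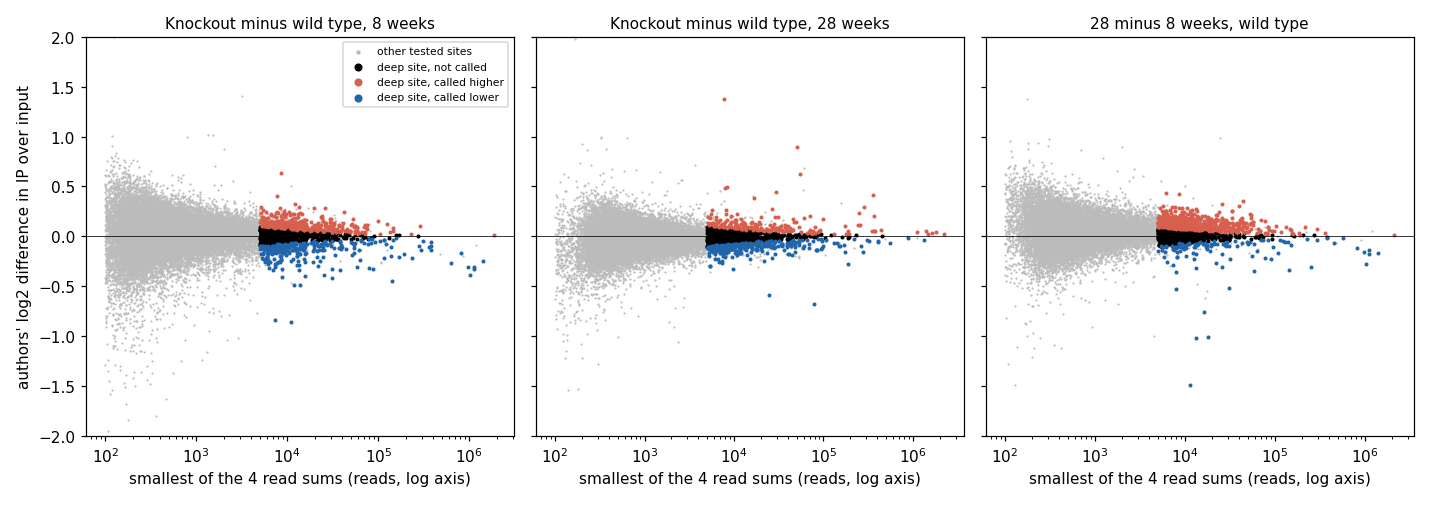
Difference in IP over input in the authors' deposited table against the smallest of the 4 sums (log axis) for tested sites of at least 100 reads, with member sites in colour by call. No member lies beyond the axis limits of 2, and 1, 1 and 2 other sites do. Members spread by a standard deviation of 0.120, 0.102 and 0.120 in the 3 panels.

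The ages could be compared for the genotype difference at the 418 followed sites, whose knockout and wild-type animals were separate at both ages. Of these, 212 were called at 8 weeks and 141 at 28 weeks, and 84 at both, which is 39.6% of the first and 59.6% of the second. Of the 84, 45 had the same direction (16 higher, 29 lower in the knockout) and 39 the opposite. At Ces1f, Mup20 and Amdhd1 the difference was at least 1.1-fold in the same direction at both ages, with 0.28 and 0.28, 0.23 and 0.20, and -0.41 and -0.17 in the authors' deposited table. Called in the same direction in all 3 tables were 15 sites, 6 of which are named here. No share over all sites was computed for like directions at both ages or in all 3 tables. Ces1f, Rrm2b and Tle5 were higher, and Hsp90ab1, Amdhd1 and Anp32a were lower. Hsp90ab1, a cytosolic chaperone, had ratios of 1.68 and 1.56 in wild type and knockout at 8 weeks. At 28 weeks they were 1.95 and 1.74, so raw sums put wild type at 28 weeks above wild type at 8 weeks. Raw sums did so too at Amdhd1 (1.47 at 8 weeks and 1.67 at 28 weeks) and Anp32a (1.45 and 1.68).

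Where a gene held several member sites, their ratios often differed, and their changes could too. There were 133 genes with 2 or more at 8 weeks, 185 at 28 weeks and 138 with age. The rule held the reference ratios between 0.7 and 2 and left out other deep sites, so the spread within a gene was limited by it. In the reference group, the highest ratio within a gene was a median of 1.24, 1.3 and 1.21 times the lowest. The widest were Mug-ps1 at 2.36 times at 8 weeks and with age, and Mug2 at 2.63 times at 28 weeks, both named for murinoglobulins, which are protease inhibitors of plasma. The median standard deviation of the difference within a gene was 0.05, 0.04 and 0.04, against a counting error of 0.025, in the authors' deposited table. All member sites of a gene had the same direction at 81 of the 133 genes at 8 weeks, 104 of 185 at 28 weeks and 89 of 138 with age. At Mug-ps1, called sites at 8 weeks stood at -0.40, -0.34 and 0.13, and at Mug2 at -0.11, 0.12 and 0.13, in the authors' deposited table. Pigr, the receptor that carries immunoglobulin A into bile, had 7 member sites at 28 weeks, with ratios from 0.785 to 1.79 in wild type and from 0.740 to 1.67 in the knockout. Only 1 of the 7 was called. Ghr, the growth hormone receptor, had 4 sites at 8 weeks, at 0.985, 1.02, 1.33 and 1.54 in wild type and 1.22, 1.3, 1.57 and 1.73 in the knockout, all 4 called higher, by 0.11 to 0.25 in the authors' deposited table. Dpyd, which starts pyrimidine breakdown, had 3 of 4 sites called higher at 8 weeks, by 0.10 to 0.22 in the authors' deposited table.

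The targeted gene had a member site in all 3 tables. At Apof the IP and input sums were 45283 and 36467 in wild type and 31637 and 21634 in the knockout at 8 weeks, and 57175 and 36192 against 27515 and 18546 at 28 weeks. The ratios were 1.24, 1.46, 1.58 and 1.48, and the difference was 0.02 at 8 weeks (adjusted p of 0.45) and -0.05 at 28 weeks (adjusted p of 0.044) in the authors' deposited table. Its RNA was lower in the knockout but not absent, with an implied mean level of 14414 against 23454 at 8 weeks and 11839 against 23860 at 28 weeks. The log2 ratios were -0.70 ± 0.11 (adjusted p of 2.3e-08) and -1.01 ± 0.16 (adjusted p of 2.5e-06), from DESeq2 in the authors' deposited table, whose SE is over 3 animals a group. Whether the reads fall outside the deleted part cannot be told without site coordinates.

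RNA of genes with a member site was tested over animals. Per DESeq2 in the authors' deposited table, 70 of 954 tested genes differed at 8 weeks (33 higher and 37 lower in the knockout), against 4.98% of all genes tested (2.48% higher, 2.5% lower). At 28 weeks 2 of 950 did, both lower (0.257% of all, 0.0834% higher and 0.174% lower), namely Apof and Apon, an apolipoprotein gene. Apon was at 11136 in wild type and 6475 in the knockout, or -0.78 ± 0.10 in the authors' deposited table. An unadjusted DESeq2 p under 0.05 was reached by 74 of the 950. No share over all genes was computed for it, so nothing is read from that count. With age, 64 of 903 differed in wild type (43 higher, 21 lower), against 4.24% of all (2.37% higher, 1.86% lower), and in the knockout 47 of 771 genes with a member site in all 3 site tables (39 higher, 8 lower), against 4.49% of all (2.03% higher, 2.46% lower).

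At 8 weeks the largest RNA rises were at Mup20 (1609 in wild type and 20544 in the knockout), Fabp5 (4122 and 35080), C8a of the complement pore (10389 and 38853) and Serpina1e (121703 and 425306), with log2 ratios of 3.67 ± 0.80, 3.09 ± 0.45, 1.90 ± 0.26 and 1.81 ± 0.48 in the authors' deposited table. The largest falls were at Apol9a (5999 and 1342), Pigr (115807 and 30607), and the cytochrome P450 genes Cyp2a5 (44890 and 13180) and Cyp2c37 (35180 and 10666), with -2.16 ± 0.39, -1.92 ± 0.40, -1.77 ± 0.45 and -1.72 ± 0.32 in the authors' deposited table. Of male-biased genes with a member site 5 of 9 rose and 0 fell, and of female-biased ones 0 of 6 rose and 1 fell. Complement genes had 6 of 31 higher, cytochrome P450 genes 1 of 24 higher and 5 lower, amino acid genes 0 of 32 higher and 4 lower, and mitochondrial genes 0 of 21 in either direction. RNA and site calls cannot be set against each other directly, since the site p covers counting error only and the RNA p the spread over animals.

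With age in wild type, RNA rose at Mup20 (1517 and 88791), Mup12 (3194 and 62064), Mup9 (2372 and 12463) and Mup3 (33621 and 136705), with log2 ratios of 5.87 ± 1.27, 4.28 ± 1.03, 2.39 ± 0.65 and 2.02 ± 0.40 in the authors' deposited table. It fell at Cyp2a5, at Por, the reductase that feeds electrons to P450 enzymes, at Cyp2c37 and at Hspa8, a heat shock chaperone, by -2.14 ± 0.65, -1.68 ± 0.34, -1.40 ± 0.20 and -1.27 ± 0.12 in the authors' deposited table. In the knockout, age raised Mup12 (3671 and 83977), Pigr (29246 and 110984), Wfdc21 (3106 and 10013) and Apoa4, an apolipoprotein gene (21121 and 50445), by 4.52 ± 1.28, 1.92 ± 0.40, 1.69 ± 0.19 and 1.26 ± 0.38 in the authors' deposited table. It lowered Elovl2, a fatty acid elongase (13912 and 1822), Fabp5 (33496 and 5941), Trpm4 (60.6 and 15.9) and Acaca, the acetyl-CoA carboxylase of fat synthesis (13918 and 6126), by -2.93 ± 0.18, -2.50 ± 0.48, -1.93 ± 0.56 and -1.18 ± 0.27 in the authors' deposited table. Amino acid genes rose at 7 of 31 in the knockout with age, and 0 fell.

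The limits of the rule cut through a continuous range. At 8 weeks the sites just inside the depth limit were Glyr1 and Dcaf8, with smallest sums of 5008 and 5011, and those just outside were Usp47 and Hspb8, with 4999 and 4998. At the lower ratio limit, Fads2 and Aldh7a1 lay inside at 0.701 and 0.702, and Msra outside, at 0.699. At the upper limit, Rbbp6 and Top1 lay inside at 1.95 and 1.97, and Htatsf1 and Phf3 outside at 2.005 and 2.02. The ratio limits left out 268 deep sites at 8 weeks on the low side and 13 on the high side, 141 and 114 at 28 weeks, and 268 and 10 with age. Albumin shows the low side, since only 1 of its 5 deep sites at 8 weeks was a member, at a ratio of 0.754, and the others lay between 0.575 and 0.627.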

How the data were processed

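IP and input RNA of 12 mouse livers was sequenced in 24 libraries. The libraries were stranded and carried UMIs, per the labels' protocols. HISAT2, StringTie and DESeq were used per the submitters' processing notes, without versions. The sources used here name no genome build, no tool for calling sites and no site positions. Counts at a site are sums by the authors over the 3 libraries of 1 group and are not normalised, per the file headers. The log2 columns of the site tables were deposited by the authors with an offset per site, and those of the RNA tables are DESeq2 ratios with an SE. The p-value columns are the authors' p and adjusted p, and 0 is printed as listed. The signal column is the authors' deposited mean of normalised counts, from which the level of each group was implied with the deposited ratio, so a group's level differs slightly between tables.

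No values per library are in the tables, so the planned edgeR fits could not be made and the authors' adjusted p under 0.05 was used. Which group was the numerator was settled from values. RNA signs were turned and site signs kept. Between input reads and deposited RNA, fold changes across genes (not replicates) had a Pearson r of -0.83 (957 genes), -0.61 (959) and -0.85 (910), and the 4 RNA ratios closed to a median residual of 0.00357 over 13383 genes. Wild-type sums were shared between tables at 16045 and 16615 sites, against 1 to 8 for other column pairs. In the site table for age in the knockout, 4 sum columns matched no group, so that table was left out. The members and gene lists were chosen with earlier results of these data known. Nothing in the labels says which animals shared a litter or batch.

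Named sites were the 6 deepest of each table, the 4 highest and 4 lowest called differences, the 2 nearest each limit, the 3 deepest of each list, genes with most sites, sites called alike in 3 tables (up to 6), and the 4 highest and 4 lowest called RNA ratios. Other sites named (Serpina1 and Mup families, Eif4g2, Ces1f, Mup20, Amdhd1 and sites of low-RNA genes) were chosen after their values were seen. Counting errors used the 4 sums with 0.5 added. A Wald test on sums scaled to column totals, used as an alternative, was tested on simulated data. It recovered known folds where both groups had alike composition and folds ran both ways. It made false calls where composition differed, most where all folds ran upward, so its splits are no better guide than the authors' values. Tables were computed in Python 3.11.15 with pandas 2.3.3 and numpy 2.4.6, tests with scipy 1.17.1, and plots with matplotlib 3.10.9. The HNF1-like stretch counted in promoters was shortened by a letter after a first count, for printing. Some items that the naming rule selects are not reported here.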

Additional observations from a re-analysis of the deposited data

How the results depend on the processing

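No paired analysis was possible because the tables hold sums per group and no values per library, and for the same reason leaving out a replicate, edgeR and another normalization of RNA were not run. Of the alternatives run, 75 values were labelled as staying within 1.5 times of the main value and 33 as moved. The 33 include the median ratios scaled to column totals, which were labelled as moved without that limit and changed by less than 1.5 times. The balance of higher and lower calls turned over when at least 1.2-fold was required, which left 39 sites at 8 weeks (9 higher, 30 lower), 17 at 28 weeks (10, 7) and 29 with age (14, 15). The Wald test on scaled sums gave 155 lower sites at 8 weeks. A smallest sum of 10000 gave 348 sites at 8 weeks (191, 157), 307 at 28 weeks with 179 lower, and 349 with age, 269 of them higher. A smallest sum of 2500 gave 939 at 8 weeks (487, 452) and 751 higher with age. Fewer sites were tested at 10000 reads and more at 2500. The share of tested sites that was called moved too. In all 3 comparisons it was higher at 10000 reads and lower at 2500 than at 5000. Directions by raw sums, an alternative chosen after seeing the data, gave 515 higher and 87 lower at 8 weeks and 18 lower with age, since raw sums omit the authors' offset. Leaving out Mup and Serpina1 sites, or sites with more than 1 name, was also chosen after seeing the data and moved no count by over 1.5 times. RNA calls at an adjusted p under 0.01 in the authors' deposited table were 40 at 8 weeks, 38 with age in wild type and 16 with age in the knockout, and calls of at least 1.5-fold were 46 at 8 weeks and 31 with age in the knockout. Median ratios scaled to column totals were 1.03, 1.1, 1.1 and 1.09, against 1.02, 1.19, 1.29 and 1.22 from raw sums. Depth sets the counting error of a site difference, and the spread between animals could not be measured.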

Other observations

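Some deep sites carry the name of a gene with little RNA. Among sites with 1 name, the gene's mean RNA level was under 1000 at 35 of 1126 sites at 8 weeks, 41 of 1215 at 28 weeks and 35 of 1086 with age. The site named for Gm10069 held 114918 input reads in wild type at 8 weeks while the gene's RNA level was 119. The site named for Enox1 held 17661 input reads at an RNA level of 0.169, and that of Otud7a 9660 at 0.159. That of Trpm4, named above for its RNA, held 8030 at 57.6. At the site named for Patl2, 34207 input reads stood beside an RNA level listed at 0. Whether the reads of these sites come from the named gene was not tested.

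The site named for Tsix, the antisense RNA of Xist, held 33733 input reads in wild type at 8 weeks, 12564 in the knockout at 8 weeks, 12892 in wild type and 16257 in the knockout at 28 weeks. Its ratios were 0.953, 1.06, 1.34 and 1.04 in that order. The RNA level of Tsix was 22.6 in wild type and 6.19 in the knockout at 8 weeks. The order of the input reads is the order of Xist RNA at 8 weeks (21017 and 10192), and the authors' deposited table lists no adjusted p for this site.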
